A study of Homo sapiens with 8 samples.

Results

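The S100 genes described here are 10 genes of the S100 family, S100B, S100A1, S100A2, S100A4, S100A6, S100A10, S100A11, S100A13, S100A16 and S100P, measured in HT144, an established human melanoma cell line. They were taken by symbol: all probes of the arrays that the platform annotation gives to a listed gene, which came to 17 of 48107 probes. Of these, 15 probes were detected on enough arrays to be tested, and they gave 9 tested genes of 13974 in all. The study set cells overexpressing SETDB1, an enzyme that methylates histone H3 to repress chromatin, beside cells with an empty vector and cells overexpressing a mutant of it. Each of 8 samples of total RNA was read on 1 Illumina bead array: 3 arrays were labelled empty vector, 2 SETDB1 overexpressing (SETDB1 OE) and 3 mutant HC/KA-SETDB1 overexpressing (HC/KA-SETDB1 OE). What HC/KA stands for, which promoter drives the constructs, whether a group is 1 clone, and whether replicates were separate cultures are points not stated in the sources used here. The p-values below therefore cover the spread among these arrays alone, and that spread may be technical.

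S100 proteins are small proteins with EF-hand calcium-binding loops that mostly work as dimers. On binding calcium most of them open a surface that docks onto partner proteins such as annexins, cytoskeletal proteins or enzymes, and some are secreted and bind the receptor AGER (RAGE). S100B is used in the clinic as a marker of melanocytic tumours, and most other S100 genes lie together on the long arm of chromosome 1, in the epidermal differentiation complex. In bulk RNA of this kind, fewer cells of a type and less RNA per cell cannot be told apart.

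The arrays were alike in brightness, with a median probe intensity between 89.0 and 94.4 and between 44.6% and 45.7% of probes detected. HC/KA-SETDB1 OE replicate 2 had its highest correlation with empty vector replicate 3 (r = 0.987), and its highest within its own group was 0.978. HC/KA-SETDB1 OE replicate 1 was also nearer to an empty vector array, replicate 1 (r = 0.970), than to its own group (0.969). The calls and near misses that rest on that group are also given without replicate 2, its array most like an empty vector array. That array was picked by these same values, and leaving out the array nearest the control can widen differences from the group. In SETDB1 OE against HC/KA-SETDB1 OE, 9.83% of all genes tested were called without it and 4.34% with it. Calls gained that way are no independent support for a difference. The SETDB1 probe did not bear out the overexpression labels. On the log2 scale it read 8.25, 8.19 and 8.04 on the empty vector arrays, 8.0 and 7.66 on the SETDB1 OE arrays, and 8.32, 8.42 and 9.0 on the HC/KA-SETDB1 OE arrays. SETDB1 OE against empty vector came to -0.33 (adjusted p = 0.692), and no source used here says whether the probe's target lies in the constructs, so the groups are called by their labels throughout. All arrays lay on 1 chip, and a group's position on it was tied to the group. SOX10, a transcription factor that defines the melanocyte lineage, was detected on 8 of 8 arrays at 11.08 to 12.1, while GPR143, also on the melanocyte list, was detected on 2 of 8. PTPRC, the pan-leukocyte surface marker, was detected on 1 of 8 and the epithelial cadherin CDH1 and the endothelial cadherin CDH5 on 0 of 8. Some other markers of those cell types were detected more widely: CD68 and CD14 (blood) on 8 of 8, KDR (endothelial) on 6 of 8 and KRT18 (epithelial) on 4 of 8. Of the fibroblast markers, COL1A2 and LUM were detected on 8 of 8.

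S100B was the only listed gene that differed between any pair of groups after adjustment over all genes, and it was lower with SETDB1 OE than with HC/KA-SETDB1 OE. S100A16 and S100A11 lay the other way and missed the threshold. Levels are log2 intensities after background correction and quantile normalization, and calls were made at adjusted p under 0.05 (limma, Benjamini-Hochberg over 13974 genes). In SETDB1 OE against empty vector 0 of 9 tested S100 genes were called, beside 0.265% of all genes tested. In HC/KA-SETDB1 OE against empty vector 0 of 9 were called as well, beside 0.322%. In SETDB1 OE against HC/KA-SETDB1 OE 1 of 9 was called, beside 4.34%. The first and second of these comparisons share the empty vector arrays.

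Counts at looser rules sat beside high backgrounds. At an unadjusted p under 0.05, 2 of 9 S100 genes passed in SETDB1 OE against empty vector (10.8% of all genes did), 0 of 9 in HC/KA-SETDB1 OE against empty vector (12.5%) and 5 of 9 in SETDB1 OE against HC/KA-SETDB1 OE (22.1%), where S100A4, S100A11 and S100A16 were higher and S100B and S100A1 lower. The arrays of the compared groups did not overlap for 4 of 9, 0 of 9 and 5 of 9 genes in that order, beside 32.0%, 16.9% and 36.9% of all genes. The median log2 fold change of the 9 genes was 0.17 in SETDB1 OE against empty vector, -0.13 in HC/KA-SETDB1 OE against empty vector and 0.24 in SETDB1 OE against HC/KA-SETDB1 OE. The medians over all genes tested were -0.0011, 0.014 and -0.0068. Fitted probe by probe over 26689 probes, 0 of 15 S100 probes were called in each comparison, beside 0.112%, 0.154% and 2.72% of all probes, and 2, 0 and 6 of them passed the unadjusted threshold.

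**Figure D1:**
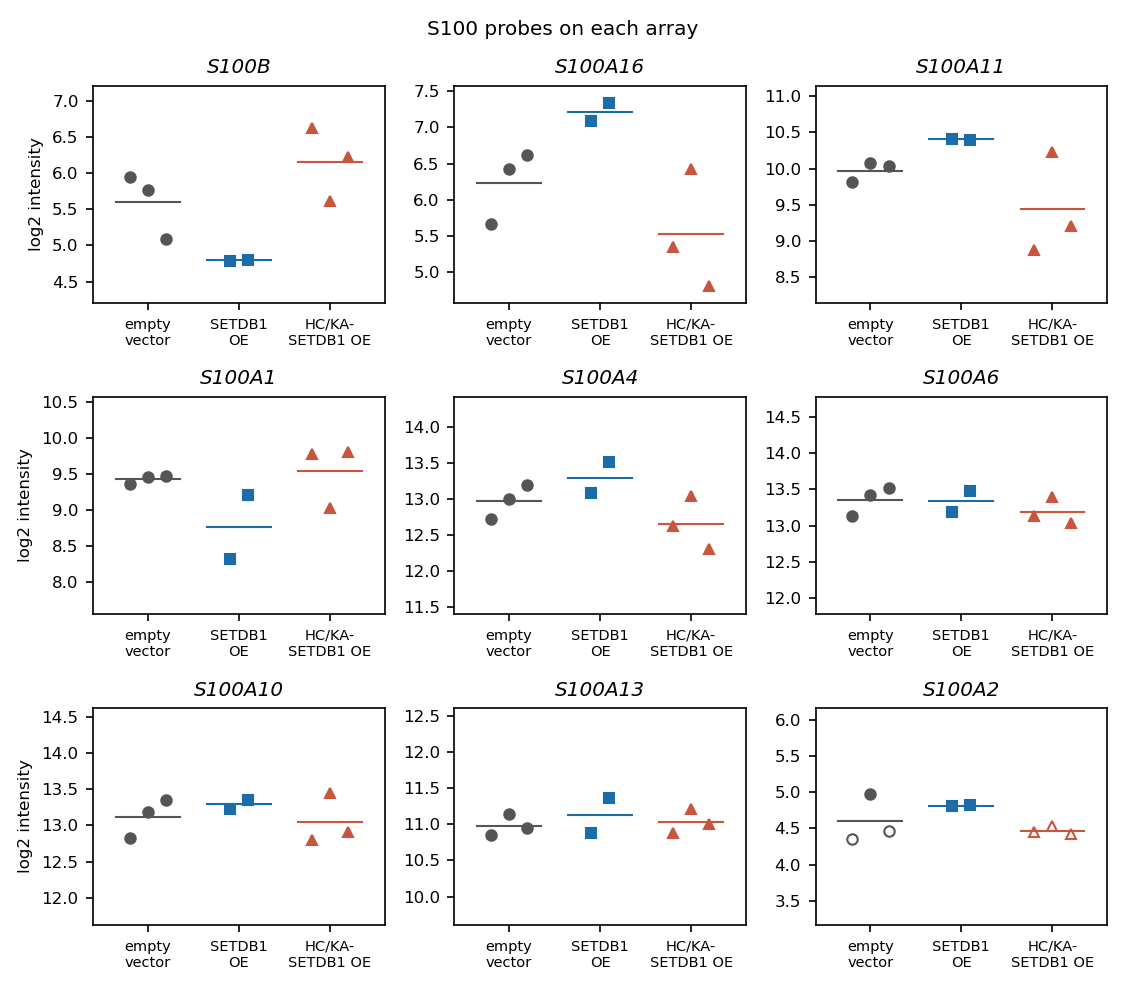
The log2 intensity (y axis, each panel spanning 3 log2 units) of the probe that stands for each of 9 S100 genes is plotted by group (x axis), 1 point per array, with a line at the group mean. Filled points were detected (detection p under 0.05) and open points were not. S100B on both SETDB1 OE arrays lies below all other arrays, S100A16 on both lies above all others, and S100A2 is open on the HC/KA-SETDB1 OE arrays.

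S100B, the family member used as a melanoma marker and a partner of p53 and of AGER, was detected on 8 of 8 arrays, close to background. Its log2 intensity was 5.95, 5.77 and 5.09 on the empty vector arrays, 4.78 and 4.80 on the SETDB1 OE arrays, and 6.62, 5.61 and 6.22 on the HC/KA-SETDB1 OE arrays. Both SETDB1 OE arrays lay below every other array, and the empty vector and HC/KA-SETDB1 OE arrays overlapped. S100B was lower by 2.57-fold in SETDB1 OE than in HC/KA-SETDB1 OE (log2 fold change -1.36, SE 0.325, 95% interval -2.08 to -0.64, adjusted p = 0.0445). Against empty vector it was not called in SETDB1 OE (-0.81, adjusted p = 0.391) or in HC/KA-SETDB1 OE (0.55, adjusted p = 0.478).

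The S100B call rested on a dim probe, whose uncorrected intensity ran from 97.4 to 159 over the arrays. It was kept in 8 of 18 alternative analyses and lost in 10, with an adjusted p between 0.012 and 0.236, and the direction held in all 18. Without background correction the log2 fold change was -0.58 (adjusted p = 0.0898), and in the authors' deposited log2 values it was -0.53 (adjusted p = 0.0994). Without HC/KA-SETDB1 OE replicate 2 it was -1.61 (adjusted p = 0.012). Leaving out other single arrays ended the call in 5 cases: empty vector replicate 2 (adjusted p = 0.062), SETDB1 OE replicate 1 (0.236) or 2 (0.185), and HC/KA-SETDB1 OE replicate 1 (0.0549) or 3 (0.13). In the fit of single probes the same difference had an adjusted p of 0.0533.

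Markers of the melanocyte lineage were read beside S100B. Of 8 tested markers, 1 was called in SETDB1 OE against HC/KA-SETDB1 OE, beside 4.34% of all genes. It was TYR, the first enzyme of melanin synthesis, which fell by 1.62 on the log2 scale (adjusted p = 0.00772). Without HC/KA-SETDB1 OE replicate 2, TYRP1, another enzyme of that pathway, was called lower as well (-2.44, adjusted p = 0.0103), beside TYR (-1.69, adjusted p = 0.00591), while with all arrays it was not (-1.94, adjusted p = 0.06). TYR was also the 1 marker called in SETDB1 OE against empty vector (0.265% of all genes), where it fell by 1.504 (adjusted p = 0.0382). At an unadjusted p under 0.05, 5 of 8 markers were lower in that comparison (10.8% of all genes passed). In HC/KA-SETDB1 OE against empty vector 2 were lower (12.5%), and in SETDB1 OE against HC/KA-SETDB1 OE 3 (22.1%), with 0 higher in each comparison. The median over the 8 markers was -1.02 in SETDB1 OE against empty vector and -0.27 in SETDB1 OE against HC/KA-SETDB1 OE. Summed over 8 markers on the array, the linear level ran from 13201 to 20146 on the empty vector arrays, 6405 to 6637 on SETDB1 OE and 7647 to 12404 on HC/KA-SETDB1 OE. The 3 ranges did not overlap, SETDB1 OE being lowest and empty vector highest, in a sum where bright genes weigh most. PMEL, a melanosome matrix protein and the brightest marker with empty vector, averaged 13.08 there and 11.28 with HC/KA-SETDB1 OE. Gene by gene, 5 of 8 markers were higher and 3 lower in HC/KA-SETDB1 OE than in empty vector, with a median of 0.06. The part of these genes in the S100B result was not tested. With the replicate number as a block, PMEL was called lower in HC/KA-SETDB1 OE than in empty vector, which it was not without the block (-1.80, adjusted p = 0.0677). Without HC/KA-SETDB1 OE replicate 2, PMEL was called lower than in empty vector in HC/KA-SETDB1 OE (-1.39, adjusted p = 0.0288) and in SETDB1 OE (-1.92, adjusted p = 0.0126). The 3 genes whose centred log2 values over the 8 arrays lay nearest to those of S100B were OCEL1, UCN (urocortin, a peptide of the corticotropin-releasing family) and ZNF25 (a zinc finger protein). Their root mean square differences from S100B were 0.191, 0.196 and 0.197 log2 units, beside an SD of S100B itself of 0.628.

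S100A16, a widely expressed member that binds calcium weakly, showed the widest range of the listed probes. It read 5.66, 6.43 and 6.62 on the empty vector arrays, 7.09 and 7.33 on the SETDB1 OE arrays, and 5.35, 6.42 and 4.81 on the HC/KA-SETDB1 OE arrays. The SETDB1 OE arrays were above every other array, and HC/KA-SETDB1 OE replicate 2 sat among the empty vector arrays. SETDB1 OE against HC/KA-SETDB1 OE came to a log2 fold change of 1.68 (SE 0.427, 95% interval 0.74 to 2.63, adjusted p = 0.0523), above the threshold. It was called in 6 of 18 alternatives, among them the analysis without HC/KA-SETDB1 OE replicate 2 (2.12, adjusted p = 0.00594). Without background correction the value was 0.89 (adjusted p = 0.0617), and this probe was dim too, with uncorrected intensities of 92.8 to 247. Against empty vector S100A16 was not called in SETDB1 OE (0.98, adjusted p = 0.442) or HC/KA-SETDB1 OE (-0.71, adjusted p = 0.488).

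S100A11 (calgizzarin), a partner of annexin A1, was read well above background. Its log2 intensity was 9.81, 10.07 and 10.03 with empty vector, 10.41 and 10.40 with SETDB1 OE, and 8.87, 10.23 and 9.20 with HC/KA-SETDB1 OE. The SETDB1 OE pair was highest and nearly equal, while the HC/KA-SETDB1 OE arrays split, replicates 1 and 3 below all others and replicate 2 above the empty vector arrays. SETDB1 OE against HC/KA-SETDB1 OE gave 0.97 (SE 0.338, 95% interval 0.22 to 1.72, adjusted p = 0.125). Without HC/KA-SETDB1 OE replicate 2 it was 1.36 (adjusted p = 0.007), and that was the only 1 of 18 alternatives that called it. With that array left out, 3 S100 genes were called in SETDB1 OE against HC/KA-SETDB1 OE, S100B, S100A16 and S100A11, beside 9.83% of 13668 genes, and 0 in each comparison with empty vector (0.549% and 1.92%).

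**Figure D2:**
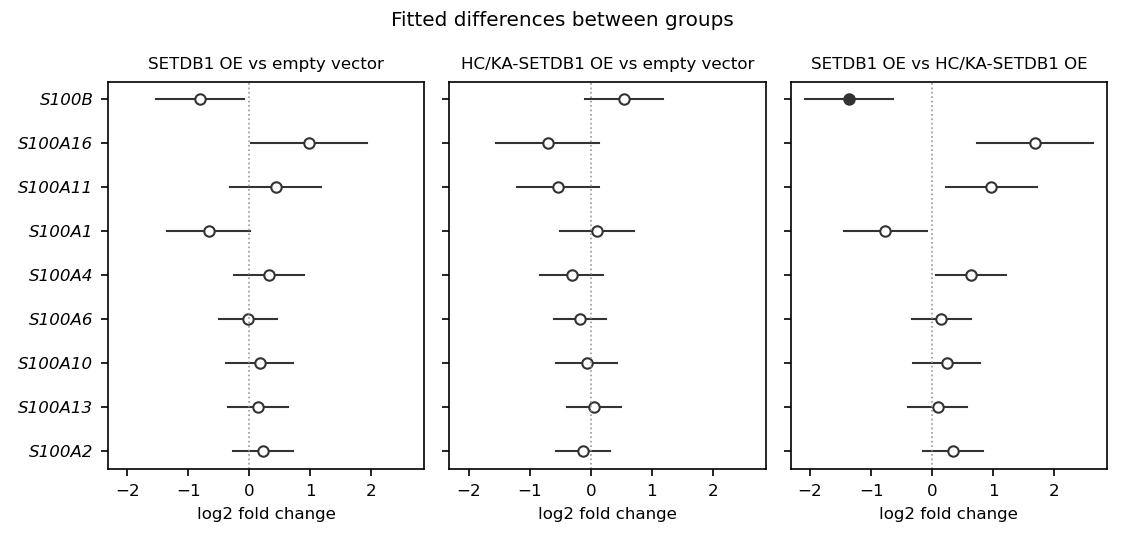
Each point is the log2 fold change (x axis) of an S100 gene (y axis) in 1 of 3 comparisons, with its 95% interval from the limma fit. A filled point was called at an adjusted p under 0.05, which S100B was in SETDB1 OE against HC/KA-SETDB1 OE at -1.36, while S100A16 at 1.68 was not. S100A2, undetected on the HC/KA-SETDB1 OE arrays, is plotted as fitted and not as a bound.

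S100A4 (metastasin), which binds non-muscle myosin and is tied to cell motility, was read by bright probes. It gave 12.72, 12.996 and 13.19 with empty vector, 13.08 and 13.51 with SETDB1 OE, and 12.63, 13.04 and 12.31 with HC/KA-SETDB1 OE. The SETDB1 OE arrays were above all HC/KA-SETDB1 OE arrays and overlapped those of empty vector. SETDB1 OE against HC/KA-SETDB1 OE was 0.63 (SE 0.262, 95% interval 0.05 to 1.21, adjusted p = 0.187) and was called in 0 of 18 alternatives, among them that without HC/KA-SETDB1 OE replicate 2 (0.82, adjusted p = 0.0746). A second S100A4 probe gave 0.69 (adjusted p = 0.300 in the fit of single probes).

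S100A1, best known in muscle, where it acts on calcium release, went the way of S100B. Its values were 9.36, 9.46 and 9.47 with empty vector, 8.32 and 9.21 with SETDB1 OE, and 9.77, 9.03 and 9.81 with HC/KA-SETDB1 OE. The empty vector arrays were close together and the SETDB1 OE pair far apart, with SETDB1 OE replicate 1 the lowest array and replicate 2 above HC/KA-SETDB1 OE replicate 2. The differences were -0.77 against HC/KA-SETDB1 OE (SE 0.307, adjusted p = 0.173) and -0.66 against empty vector (adjusted p = 0.471), with no call in the 18 alternatives of each. The first of these was -1.02 without HC/KA-SETDB1 OE replicate 2 (adjusted p = 0.0503).

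Both S100A6 (calcyclin), a partner of CACYBP, and S100A10 (p11), which pairs with annexin A2 and does not bind calcium, were bright and close to level. S100A6 read 13.13, 13.41 and 13.52 with empty vector, 13.19 and 13.48 with SETDB1 OE, and 13.13, 13.40 and 13.03 with HC/KA-SETDB1 OE. S100A10 read 12.83, 13.19 and 13.35, then 13.22 and 13.36, then 12.80, 13.45 and 12.92 in the same order of groups. The groups overlapped on the probe that stood for each gene. Of all pairs of tested S100 genes these had the most similar centred values, 0.132 log2 units apart by root mean square. SETDB1 OE against HC/KA-SETDB1 OE gave 0.15 for S100A6 (95% interval -0.33 to 0.63) and 0.24 for S100A10 (-0.32 to 0.79), and a second S100A10 probe gave 0.33. On that second probe the SETDB1 OE arrays, at 13.02 and 13.13, lay above the empty vector arrays, at 12.6, 12.81 and 12.93. That difference was 0.30 (adjusted p = 0.803 in the fit of single probes). The farthest pair was S100B and S100A16, 1.41 apart.

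S100A13, which takes part in the release of fibroblast growth factor 1, had 6 probes that did not read alike. The probe that stood for the gene read 10.85, 11.14 and 10.94 with empty vector, 10.88 and 11.36 with SETDB1 OE, and 10.88, 11.21 and 11.001 with HC/KA-SETDB1 OE. The groups overlapped, with log2 fold changes of 0.14, 0.05 and 0.09 in the order of comparisons used above. A second bright probe gave 0.33, 0.17 and 0.16. A dim probe was higher in SETDB1 OE than in HC/KA-SETDB1 OE by 0.83 (95% interval 0.22 to 1.44, adjusted p = 0.133 over all probes), while another at 7.37 to 9.12 gave -0.39 (-1.35 to 0.57, adjusted p = 0.697). Of the remaining 2, 1 was detected on 5 of 8 arrays, with log2 fold changes of 0.30, 0.23 and 0.07, and 1 on 0 of 8.

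S100A2, an epithelial member that responds to p53, was detected on 3 of 8 arrays: empty vector replicate 2 at 4.97 and both SETDB1 OE arrays at 4.81 and 4.82. The other arrays, all HC/KA-SETDB1 OE arrays among them, read 4.36 to 4.53 and were not above background. SETDB1 OE against HC/KA-SETDB1 OE gave 0.35 as fitted (95% interval -0.14 to 0.84, adjusted p = 0.393). As a bound, with undetected values raised to the lowest detected probe, it was 0.26 on the log2 scale. No difference was detectable at this brightness. S100P, a placental and epithelial member that also binds AGER, was detected on 1 of 8 arrays, SETDB1 OE replicate 2, at 4.81, with the other arrays at 4.37 to 4.73, and was not tested.

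Of the listed genes, 8 lie on chromosome 1, S100P on chromosome 4 and S100B on chromosome 21. In the RefSeq gene table of GRCh38.p14, S100A10 comes first, then S100A11, S100A6, S100A4, S100A2 and S100A16, and S100A13 spans S100A1, which lies on the other strand. Promoter windows of 300 bases (250 before to 50 after a transcript start) were on hand from RefSeq for 9 of the 10 genes, in 13 windows. S100B has no entry. The windows of the 3 chromosome 1 genes that differed most in SETDB1 OE against HC/KA-SETDB1 OE are shown because their CG content differs, with every CG in capitals, 5′ to 3′ on the gene's strand.
S100A11, chr1:152036955-152037254, minus strand: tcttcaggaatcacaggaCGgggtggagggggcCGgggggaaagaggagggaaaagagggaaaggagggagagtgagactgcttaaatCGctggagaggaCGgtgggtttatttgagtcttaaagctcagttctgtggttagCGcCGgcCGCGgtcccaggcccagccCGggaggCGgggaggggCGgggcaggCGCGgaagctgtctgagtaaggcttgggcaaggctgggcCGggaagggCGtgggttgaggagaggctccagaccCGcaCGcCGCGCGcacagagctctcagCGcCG
S100A16, first window, chr1:153613088-153613387, minus strand: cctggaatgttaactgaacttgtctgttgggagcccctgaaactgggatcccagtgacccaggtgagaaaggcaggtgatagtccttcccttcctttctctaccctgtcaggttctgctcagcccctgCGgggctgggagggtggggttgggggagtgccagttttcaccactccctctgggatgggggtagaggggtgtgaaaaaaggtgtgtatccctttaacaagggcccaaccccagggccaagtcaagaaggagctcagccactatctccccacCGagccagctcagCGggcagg
S100A1, chr1:153628184-153628483, plus strand: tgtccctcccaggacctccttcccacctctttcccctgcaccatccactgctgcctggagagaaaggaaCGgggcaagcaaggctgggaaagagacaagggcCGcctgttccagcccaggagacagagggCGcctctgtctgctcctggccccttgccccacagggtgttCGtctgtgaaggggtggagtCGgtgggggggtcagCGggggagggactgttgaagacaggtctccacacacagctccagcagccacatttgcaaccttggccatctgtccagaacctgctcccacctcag

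The S100A11 window holds 22 CG, the first S100A16 window 3 and the S100A1 window 6, beside a median of 14 over 35116 windows of that length. At least as many CG stand in 37.7%, 81.8% and 66.3% of all windows, respectively. The second S100A16 window holds 8 CG. S100A10 (32 CG) and S100A6 (31 CG) had the most of the listed genes, S100A4 had 8, and the S100A13 windows had 19, 11 and 12. A link between CG content and level was not tested. Among letters searched, CATGTG on both strands, an element that MITF can bind, stood once each in the second S100A16 window, the first S100A13 window and the S100P window, beside 11.1% of all windows. TGANTCA on both strands, the AP-1 element, stood once, in the first S100A2 window, beside 7.71%. TATAAA on the gene's strand stood in the S100A4, the second S100A13 and the S100P windows, beside 7.33%. These motifs overlap no other of the set, and a match describes letters and not a bound site.

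The chromosome 1 genes did not move as 1 block. The median deviation of the 8 tested genes from their empty vector means was -0.23, 0.08 and 0.11 on the empty vector arrays themselves. It was 0.10 and 0.31 on the SETDB1 OE arrays and -0.28, 0.13 and -0.27 on the HC/KA-SETDB1 OE arrays. Empty vector replicate 1 had 8 of 8 genes below the mean, HC/KA-SETDB1 OE replicates 1, 2 and 3 had 7, 2 and 6, and SETDB1 OE replicates 1 and 2 had 3 and 1. On SETDB1 OE replicate 1, S100A1 was at -1.11, S100A6 at -0.17 and S100A13 at -0.10, while S100A16 was at 0.85 and S100A11 at 0.44.

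**Figure D3:**
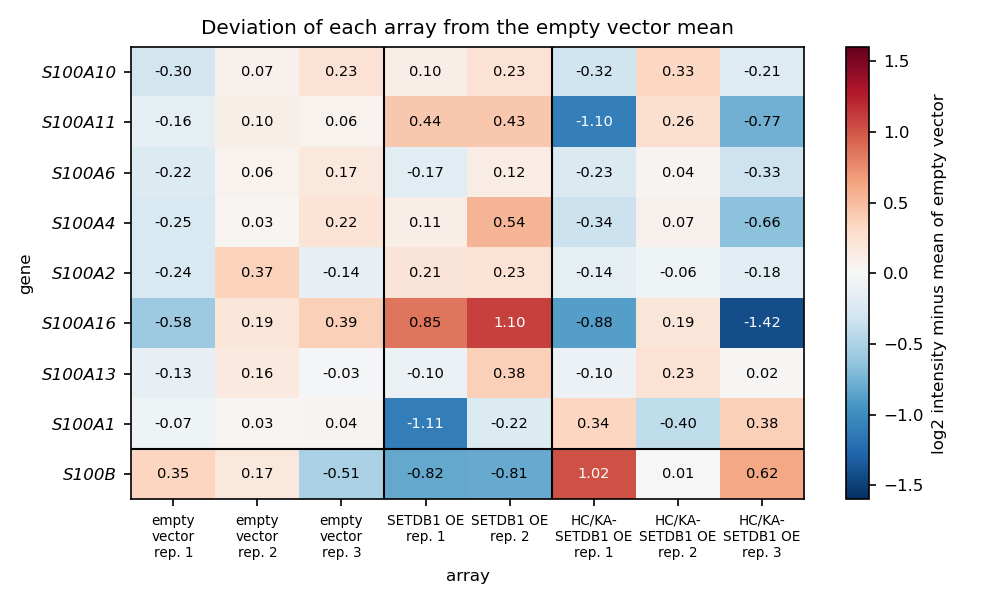
Each cell gives the log2 intensity of a gene (rows) on an array (columns) minus the gene's mean over the 3 empty vector arrays. The 8 genes of chromosome 1 stand above the horizontal line in gene table order and S100B below it. S100A16 reaches 1.10 and -1.42, S100B -0.82 and 1.02, and the column of HC/KA-SETDB1 OE replicate 2 runs from -0.40 (S100A1) to 0.33 (S100A10).

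The stretch from S100A10 to S100A1 holds 93 genes in the gene table, 62 of them protein-coding, and 23 were tested, 16 of which are not on the list. Of those 16, 0 were called in SETDB1 OE against empty vector (0.265% of all genes), 0 in HC/KA-SETDB1 OE against empty vector (0.322%) and 1 in SETDB1 OE against HC/KA-SETDB1 OE (4.34%). In that order 2, 0 and 2 had an unadjusted p under 0.05, beside 10.8%, 12.5% and 22.1% of all genes. The called gene was SPRR2D, a small proline-rich protein of the cornified envelope, which read 4.57, 5.06 and 5.0 with empty vector, 7.21 and 6.21 with SETDB1 OE, and 4.77, 5.63 and 4.43 with HC/KA-SETDB1 OE. Both SETDB1 OE arrays were above all others, and it was higher there than in HC/KA-SETDB1 OE by 1.77 (SE 0.379, adjusted p = 0.0308). Its difference from empty vector was 1.83 (adjusted p = 0.0934). Both were called without HC/KA-SETDB1 OE replicate 2, at 2.085 (adjusted p = 0.0065) and 1.81 (adjusted p = 0.0365). The median log2 fold change of the 16 was 0.18, -0.08 and 0.18 in the order of comparisons used above.

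Of 11 other S100 genes, 5 were tested and none was called by limma in any comparison. At an unadjusted p under 0.05, 0 passed in HC/KA-SETDB1 OE against empty vector (12.5% of all genes did). In SETDB1 OE against empty vector (10.8%) and against HC/KA-SETDB1 OE (22.1%) the same 1 gene passed. That gene was S100A9, a chain of the neutrophil protein calprotectin, which read 4.45, 5.68 and 4.47 with empty vector, 5.56 and 6.40 with SETDB1 OE, and 4.63, 4.74 and 5.16 with HC/KA-SETDB1 OE. It was detected on 5 of 8 arrays. SETDB1 OE differed from HC/KA-SETDB1 OE by 1.13 (adjusted p = 0.121) and from empty vector by 1.11 (adjusted p = 0.317). Of 3 tested blood cell markers, 1 was called in SETDB1 OE against HC/KA-SETDB1 OE, beside 4.34% of all genes. It was CD14, a monocyte marker, with a log2 fold change of -1.08 (adjusted p = 0.0381). It was also called without HC/KA-SETDB1 OE replicate 2 (-1.18, adjusted p = 0.023). CD68 (-0.17, adjusted p = 0.812) and HBB (0.21, adjusted p = 0.592) were not called in that comparison. The summed blood cell markers ran from 1279 to 1805, 1063 to 1268 and 908 to 1836 in the 3 groups, with 3 of 6 tested. Their part in the S100A9 values was not tested. Of 7 fused-type S100 genes of the epidermis, such as the filaggrin gene FLG, 1 was tested and not called.

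Genes for S100 partners and receptors numbered 26, of which 23 were tested and none was called in any comparison. At an unadjusted p under 0.05, 5 were higher and 1 lower in SETDB1 OE against empty vector, 1 and 1 in HC/KA-SETDB1 OE against empty vector, and 6 and 2 in SETDB1 OE against HC/KA-SETDB1 OE. Of all genes tested, 10.8%, 12.5% and 22.1% passed that threshold in the same order. ANXA2, the annexin that binds S100A10, read 12.68, 13.19 and 13.04 with empty vector, 13.70 and 13.67 with SETDB1 OE, and 12.80, 13.15 and 12.56 with HC/KA-SETDB1 OE. Both SETDB1 OE arrays were above all others, with a difference of 0.85 from HC/KA-SETDB1 OE (SE 0.237, adjusted p = 0.0695), called in 4 of 18 alternatives, and of 0.72 from empty vector (adjusted p = 0.289). CACYBP, the S100A6 partner, differed by 0.83 in SETDB1 OE against HC/KA-SETDB1 OE (adjusted p = 0.123). AHNAK, a scaffold held by S100A10 and annexin A2, gave 0.27 (adjusted p = 0.708), a sign that turned to -0.53 when all its passing probes were averaged. AGER, the receptor, gave 0.13 (adjusted p = 0.775), and -0.080 with probes averaged. Without HC/KA-SETDB1 OE replicate 2, 3 of 23 partners were called in SETDB1 OE against HC/KA-SETDB1 OE, beside 9.83% of all genes: ANXA1 and ANXA2 higher and ANXA11 lower.

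Of 25 genes for other EF-hand calcium sensors, 21 were tested and 1 was called, in SETDB1 OE against HC/KA-SETDB1 OE, beside 4.34% of all genes. That gene was CAPN2, the large subunit of a calcium-activated protease. It read 6.26, 6.91 and 6.44 with empty vector, 7.36 and 7.65 with SETDB1 OE, and 5.21, 6.09 and 6.07 with HC/KA-SETDB1 OE. No array of one group overlapped with those of another. CAPN2 was higher in SETDB1 OE than in HC/KA-SETDB1 OE by 1.72 (SE 0.304, adjusted p = 0.0166), called in 16 of 18 alternatives and lost without SETDB1 OE replicate 1 (adjusted p = 0.105) or 2 (0.115). It was 1.86 without HC/KA-SETDB1 OE replicate 2 (adjusted p = 0.00916), where CETN2, a centrosomal centrin, was called higher too (1.08, adjusted p = 0.0327). The median log2 fold change of the 21 genes in SETDB1 OE against HC/KA-SETDB1 OE was -0.05.

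Fibroblast markers were read because several S100 genes are expressed in stroma. Of 7 markers 6 were tested and 1 was called, in SETDB1 OE against HC/KA-SETDB1 OE, beside 4.34% of all genes. That marker was DCN, a matrix proteoglycan detected on all empty vector and SETDB1 OE arrays and on no HC/KA-SETDB1 OE array. It was at least 2.16-fold higher in SETDB1 OE than in HC/KA-SETDB1 OE (adjusted p = 0.0478), a call lost without HC/KA-SETDB1 OE replicate 2. With the replicate number as a block DCN was also called lower in HC/KA-SETDB1 OE than in empty vector, which it was not without the block (adjusted p = 0.0948). COL1A2, a chain of type I collagen, lay the other way and was not called (-1.26 in SETDB1 OE against HC/KA-SETDB1 OE, adjusted p = 0.105). It read 9.01, 9.89 and 10.5 with empty vector, 9.26 and 10.29 with SETDB1 OE, and 10.94, 11.18 and 10.99 with HC/KA-SETDB1 OE, the HC/KA-SETDB1 OE arrays above all others. The summed level ran from 1124 to 1866 with empty vector, 912 to 1714 with SETDB1 OE and 2259 to 2511 with HC/KA-SETDB1 OE. COL1A2, the brightest marker, weighs most in that sum. It was the 1 marker of 6 higher in HC/KA-SETDB1 OE than in empty vector (1.24, adjusted p = 0.213). The other 5 were lower, LUM among them (-1.42, adjusted p = 0.154), and the median of the 6 was -0.35. PDGFRA, a defining marker, was detected on 1 of 8 arrays. The part of these genes in the S100 values was not tested. Epithelial markers (2 of 7 tested) and endothelial markers (2 of 5 tested) gave 0 calls in limma and 0 at an unadjusted p under 0.05, with summed levels of 157 to 169 and 116 to 134 over all arrays.

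**Figure D4:**
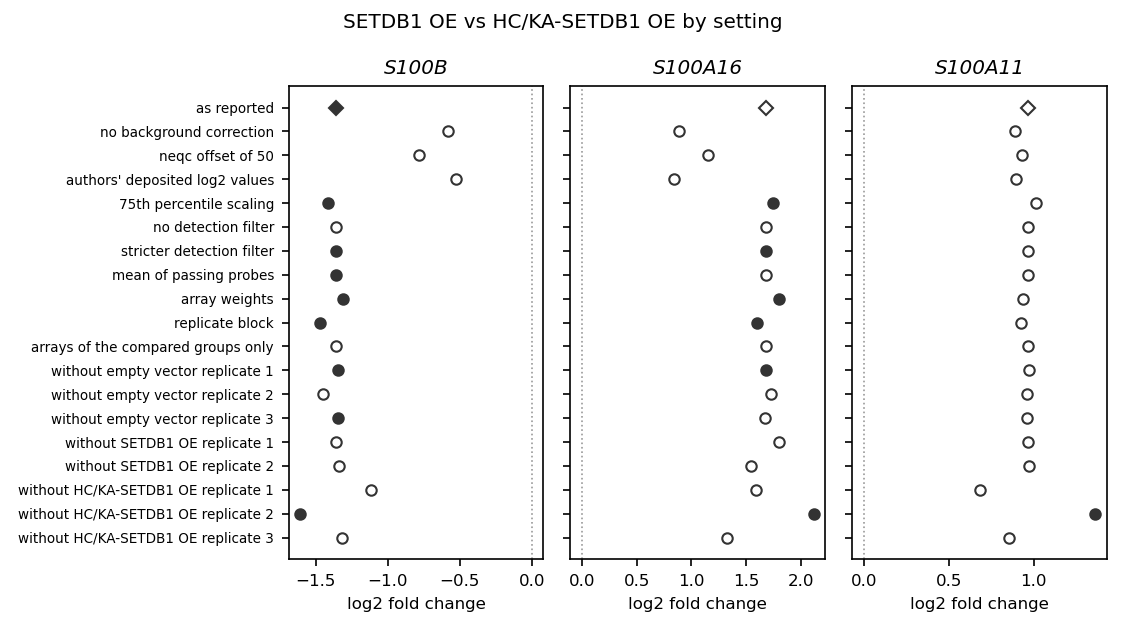
The log2 fold change (x axis) in SETDB1 OE against HC/KA-SETDB1 OE is plotted for S100B, S100A16 and S100A11 under the analysis as reported (diamond) and each of 18 alternatives (circles, named on the y axis), with filled symbols where the gene was called. The values run from -1.61 to -0.53 for S100B, 0.84 to 2.12 for S100A16 and 0.69 to 1.36 for S100A11.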

How the data were processed

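For each probe on each array the authors deposited a linear intensity, not normalized per the file headers, a detection p-value, and a processed log2 value that served as an alternative only. No source used here says how that p-value was made. Left out were 5 of 48107 probes, for a missing cell. Symbols came from the platform annotation, with names updated through the RefSeq genes of GRCh38.p14.

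The neqc function of limma 3.58.1 (R 4.3.3) corrected and normalized intensities (background from the detection p-values, offset 16, quantile normalization). Probes had to be detected (p under 0.05) on 2 or more arrays, and the probe with the highest mean stood for its gene. Groups were compared with limma on all 8 arrays, a term per group, two-sided, with Benjamini-Hochberg adjustment over all genes of a comparison. The fit was tested on simulated data. The number of arrays limits the precision. A gene undetected on every array of a group was given as a bound, the brighter group's mean over the mean, per dim array, of the higher of its own value and the lowest detected probe.

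The S100 genes and gene lists were chosen with earlier results of these data known. Named were all listed genes, SETDB1, called list genes, ANXA2, AHNAK, CACYBP and AGER, and the 3 genes nearest to each called S100 gene. S100A9, PMEL, TYRP1, MITF, COL1A2, LUM, CETN2, PLAT, ANXA1 and ANXA11 were added after their values were seen, and so were the list counts without HC/KA-SETDB1 OE replicate 2 or with the replicate block. Whether replicate numbers pair the arrays was not shown, since only arrays of the same number were compared. Between empty vector and HC/KA-SETDB1 OE, same-numbered deviations from the group means correlated at 0.459, 0.189 and 0.145. For pairs with SETDB1 OE, 2 in each comparison, these correlations lay between 0.031 and 0.147. Alternatives covered background correction, offset, scaling, filter, probes, array weights, replicate block and single arrays left out. Figures used matplotlib 3.10.9 (Python 3.11.15), and files were read with data.table (version 1.17.8).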

Additional observations from a re-analysis of the deposited data

How the results depend on the processing

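The counts of S100 genes called in SETDB1 OE against empty vector and in HC/KA-SETDB1 OE against empty vector were 0 in each alternative. In SETDB1 OE against HC/KA-SETDB1 OE the count of 1 became 0 without background correction, with an offset of 50, with the authors' deposited log2 values, without the detection filter, and with the arrays of the compared groups only. It became 2 with 75th percentile scaling, the stricter detection filter, array weights and the replicate block, and ranged from 0 to 3 with single arrays left out. The count of S100 probes called, 0 as reported, was 1 with the stricter filter, 2 with 75th percentile scaling, array weights and the replicate block, and 0 to 3 with single arrays left out. The cause was not tested. The replicate block changed no other S100 call. In no comparison were the numbers shown to pair the arrays. In SETDB1 OE against HC/KA-SETDB1 OE the block added calls for MITF (-1.25, adjusted p = 0.0283), TYRP1 (-1.96, 0.0161) and PLAT (1.04, 0.0366), and CD14 was no longer called (-0.95, 0.0509). Counts over all genes in that comparison moved from 606 to 274 without the filter, 169 with the compared arrays only, 1159 with array weights, and 41 to 1343 with single arrays left out. In SETDB1 OE against empty vector they moved from 37 to between 10 and 155, and in HC/KA-SETDB1 OE against empty vector from 45 to between 2 and 262, with 127 under the replicate block.

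Over the listed genes, 483 fold changes were recomputed: 453 kept direction and side of the threshold, 10 lost the call, 7 gained it and 13 changed sign, all of the last uncalled. With single arrays left out, SETDB1 OE against empty vector ran from -0.10 to 0.38 for S100A13, -0.17 to 0.12 for S100A6 and -0.23 to 0.21 for AGER. HC/KA-SETDB1 OE against empty vector ran from -0.033 to 0.36 for S100A1, -0.26 to 0.062 for S100A10, -0.038 to 0.13 for S100A13, -0.24 to 0.061 for S100A2, -0.16 to 0.50 for AHNAK and -0.29 to 0.0053 for ANXA2. SETDB1 OE against HC/KA-SETDB1 OE ran from -0.15 to 0.33 for S100A13 and -0.091 to 0.36 for AGER. With passing probes averaged, S100A13 was -0.017 in HC/KA-SETDB1 OE against empty vector, AHNAK -0.0054 in SETDB1 OE against empty vector and -0.53 in SETDB1 OE against HC/KA-SETDB1 OE, and AGER -0.080 in the latter. Under the replicate block CACYBP was -0.014 in SETDB1 OE against empty vector. Leaving out 1 SETDB1 OE array leaves a lone sample, assumed to vary like the other groups. S100B and S100A16 lay near background, and their fold changes were smaller without background correction.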
